A study of Mus musculus with 6 samples.

Results

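The genes described here encode the enzymes that hydroxylate collagen chains inside the cell and cross-link them outside it: the catalytic subunits of collagen prolyl 4-hydroxylase (P4ha1, P4ha2), the lysyl hydroxylases (Plod1, Plod2, Plod3) and the lysyl oxidases (Lox, Loxl1, Loxl2, Loxl3, Loxl4). They were chosen by gene symbol, and all 10 were found among the 23420 mouse gene symbols of the count table. RNA was sequenced from eEnd2 cells, an endothelial line of embryonic mouse origin, to ask how a glutamine that mimics acetylation of a lysine in the cytoplasmic tail of Integrin-β1 alters gene expression. The cells carried human Integrin-β1A with GFP in its extracellular part, either wildtype (β1-WT-GFP) or with the K794Q substitution (β1-K794Q-GFP), each in 3 cultures named A, B and C and called wildtype and mutant cultures. The mouse cells kept their own Itgb1 gene, and the human chimera was expressed from a plasmid with a short human β-actin promoter and a chicken lysozyme matrix attachment region. All cultures came from the same parent line, were sorted for GFP, were grown to confluence in medium with 10% fetal calf serum at a labelled CO2 level of 5%, and received no treatment. The sort gave a population low and a population high in GFP, and the labels do not say which of them each culture came from. The table lists mouse symbols only, so the human transgene could not be checked in it.

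Collagen chains are modified while they are still being made. In the endoplasmic reticulum, prolyl 4-hydroxylase makes hydroxyproline, which holds the collagen triple helix together at body temperature, and lysyl hydroxylases make hydroxylysine, which carries sugars and shapes the later cross-links; these enzymes need iron, ascorbate and oxygen. After secretion, the copper-dependent lysyl oxidases turn lysines and hydroxylysines of collagens and elastin into reactive aldehydes that join neighbouring molecules, and in endothelial cells they act on the collagen IV network of the basement membrane.

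Reads counted on genes came to 10203916, 11197729 and 11071680 in mutant cultures A, B and C, and to 10918600, 9589826 and 15287191 in the wildtype ones. Values are normalized counts, that is CPM (counts scaled by library total and TMM factor). A count of 0 allows up to 3 counts, which is 0.209 to 0.300 CPM depending on the culture, for counting error only. Within a group, some cultures were more alike than others: 23 genes were at least 2-fold apart in the pair of wildtype cultures A and B, against 2478 in A and C. Among mutant cultures this number was 796 for the pair A and C, 1787 for A and B, and 2359 for B and C. The labels call the samples different cultures, and p values measure only the spread between them. All 10 endothelial markers passed the filter on low counts, with summed levels of 6814, 12929 and 7626 CPM in mutant cultures A, B and C, against 8321, 9173 and 8417 CPM in wildtype cultures A, B and C. Pecam1 lay between 1779 and 2818 CPM, Cdh5, encoding VE-cadherin, between 1294 and 3994 CPM, and the receptor gene Tie1 between 774 and 1353 CPM. Of the 10 markers, 7 were highest in mutant culture B, beside 21.9% of all tested genes. Flt1 went the other way, with 31.3 CPM in mutant culture B and 142 to 457 CPM in the other cultures.

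Of the 10 enzyme genes, 8 passed the filter and 1 of these, Loxl2, passed both thresholds, an at least 2-fold change and an unadjusted p no higher than 0.05 in edgeR's quasi-likelihood test. It was higher in β1-K794Q-GFP cells. Among all 11608 genes tested, 5.19% passed both thresholds, 3.48% being higher and 1.71% lower in the mutant. No enzyme gene had an adjusted p of at most 0.05 (edgeR, Benjamini-Hochberg over all tested genes), a level that 0.181% of tested genes reached. With DESeq2 1 enzyme gene, Loxl2, reached that level, as did 4.11% of tested genes. An unadjusted p of at most 0.05 in edgeR was seen for 1 enzyme gene, again Loxl2, and for 10.2% of tested genes. The cultures of the groups did not overlap in 1 of the 8 genes, Loxl2 again, and in 16.6% of all tested genes. The 7 other tested genes had log2 fold changes from 0.05 to 1.67, each within 2 standard errors (SE) of 0, and adjusted p values from 0.697 to 0.970. The median log2 fold change of the 8 tested genes was 0.58, beside -0.02 over all tested genes. It was 0.08 without mutant culture B and 0.88 without wildtype culture C. As counts per sample come from whole cultures, fewer cells that express a gene and less RNA per cell cannot be told apart.

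**Figure D1:**
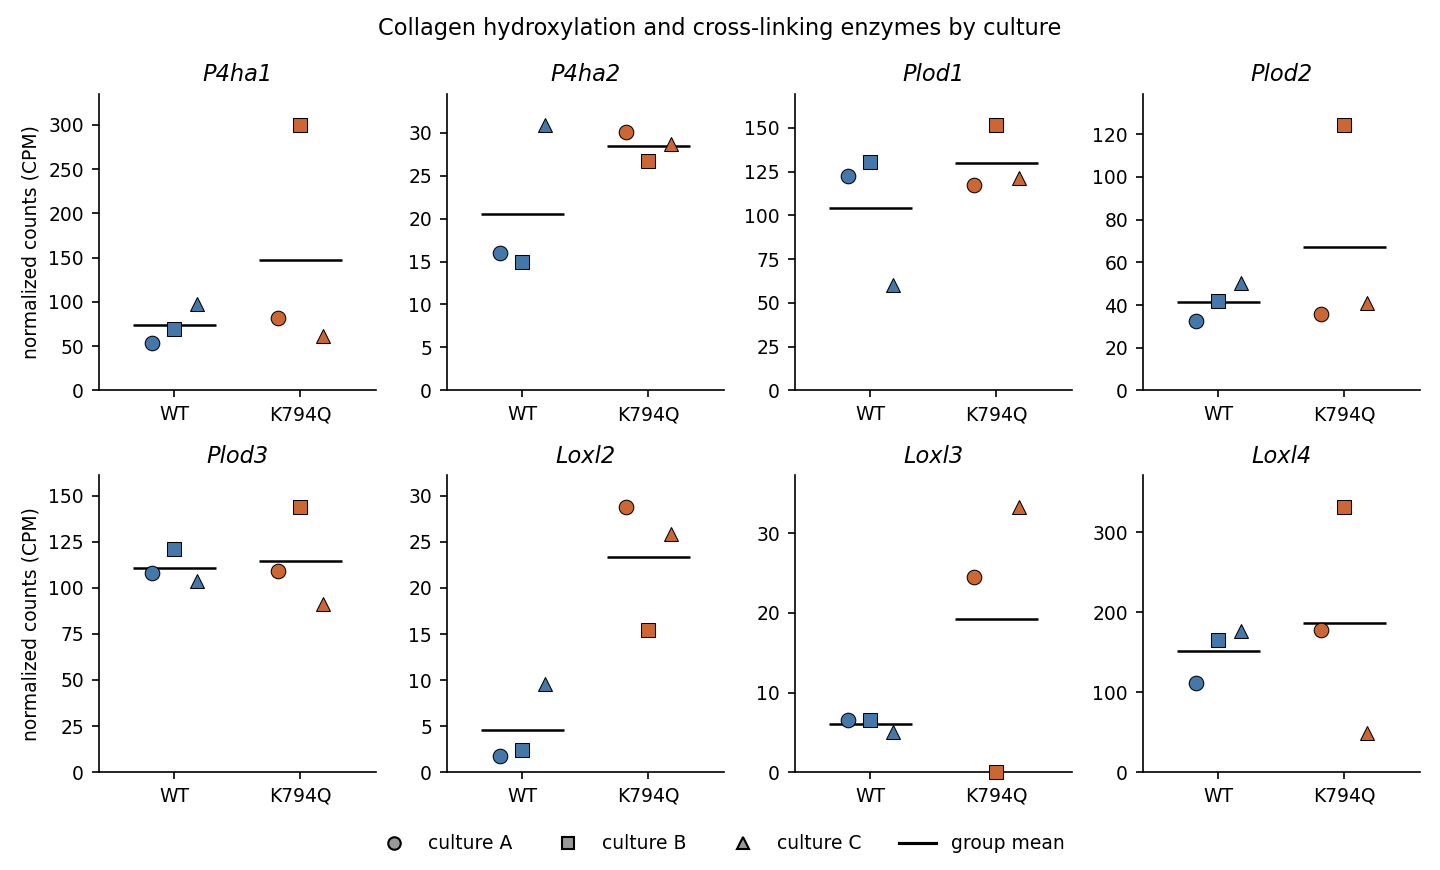
Normalized counts (CPM, linear axes from 0) of the 8 tested enzyme genes in each culture, with blue symbols for β1-WT-GFP, orange symbols for β1-K794Q-GFP and bars at the group means. Loxl2 is the gene whose groups do not overlap, and in P4ha1 and Plod2 mutant culture B stands apart from the other 5 cultures.

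P4ha1 and P4ha2 encode alternative catalytic subunits of prolyl 4-hydroxylase, each of which assembles with the product of P4hb. P4ha1 (chromosome 10 of GRCm38, 59323296 to 59373304) had 81.7, 299 and 62.0 CPM in mutant cultures A, B and C, against 53.8, 69.1 and 98.1 CPM in wildtype cultures A, B and C. Culture B of the mutant was the highest of all 6, and the other mutant cultures lay within the range of the wildtype. The log2 fold change of 1.00 ± 0.63 (SE; adjusted p = 0.697, edgeR) did not pass the test and was -0.03 without that culture. Neighbouring genes on chromosome 10 were also higher there: the median log2 level of the 25 genes around P4ha1, relative to the wildtype mean, was 0.84 in mutant culture B, and the log2 fold change of P4ha1 was 0.53 once this level was taken out.
P4ha2 (chromosome 11, 54100095 to 54131665) had 30.0, 26.7 and 28.6 CPM in mutant cultures A, B and C, against 16.0, 14.9 and 30.9 CPM in wildtype cultures A, B and C. The mutant cultures were close together, 28.5 ± 1.65 CPM (SD, n = 3), and all lay above wildtype cultures A and B and below wildtype culture C. Its log2 fold change was 0.47 ± 0.32 (SE; adjusted p = 0.727, edgeR). It was 0.89 without wildtype culture C, still under a 2-fold difference.

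The stretch of 250 bases before the RefSeq start (GRCm38.p6) is shown for both prolyl 4-hydroxylase subunits, because P4ha1 was highest in mutant culture B and P4ha2 was not, and for Loxl4, which was highest in that culture too. RefSeq promoters were read for 5 of the enzyme genes, and Lox was left out of this search. The other 2 were Plod1 and Plod3, also highest in mutant culture B, which are counted below and not printed. Capitals mark ACGTG or GCGTG on either strand, the core letters bound by hypoxia-inducible factors, which can overlap each other and the E-box CACGTG. The RefSeq start of P4ha2 lies past the start of its GENCODE interval, so that its stretch is inside that interval, while that of P4ha1 is before it. No GENCODE exon overlaps the P4ha1 and P4ha2 stretches, and 7 bases of the first Loxl4 exon overlap the last. The sequences are P4ha1 (chr10:59323046-59323295, plus strand), P4ha2 (chr11:54100674-54100923, plus strand) and Loxl4 (chr19:42612807-42613056, minus strand), each written 5′ to 3′.
P4ha1: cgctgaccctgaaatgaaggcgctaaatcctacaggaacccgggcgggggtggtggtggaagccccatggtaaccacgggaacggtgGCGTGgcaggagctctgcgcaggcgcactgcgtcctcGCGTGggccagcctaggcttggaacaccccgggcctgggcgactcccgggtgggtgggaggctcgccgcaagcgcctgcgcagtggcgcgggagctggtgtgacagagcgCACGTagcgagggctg
P4ha2: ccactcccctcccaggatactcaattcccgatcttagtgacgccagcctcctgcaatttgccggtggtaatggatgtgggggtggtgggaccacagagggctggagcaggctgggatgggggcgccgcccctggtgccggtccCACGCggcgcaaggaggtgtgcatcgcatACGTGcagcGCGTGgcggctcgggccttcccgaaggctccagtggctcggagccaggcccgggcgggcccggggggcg
Loxl4: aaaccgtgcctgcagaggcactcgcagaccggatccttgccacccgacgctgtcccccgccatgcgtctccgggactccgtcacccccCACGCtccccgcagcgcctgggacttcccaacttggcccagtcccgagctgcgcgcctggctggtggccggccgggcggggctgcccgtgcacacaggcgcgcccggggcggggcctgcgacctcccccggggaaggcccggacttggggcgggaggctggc
The P4ha1 and P4ha2 stretches held 3 matches each, the Loxl4 and Plod1 stretches 1 each, and the Plod3 stretch 4, with 208 of its 250 bases in an exon. Of all 32851 RefSeq promoters, 38.6% held at least 1 match in the same 250 bases, 16.7% held at least 2 and 2.58% held at least 4. Plod2, also highest in mutant culture B, had no entry. Whether these matches bear on the levels in that culture was not tested.

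The lysyl hydroxylases differ in the lysines they modify. Plod1 acts on the helical part of collagen chains, Plod2 on the telopeptides at their ends, which directs the stable pyridinoline cross-links, and Plod3 also has a part in adding sugars to hydroxylysine. Plod2 (chromosome 9, 92542223 to 92608428) had 35.6, 124 and 41.0 CPM in mutant cultures A, B and C, against 32.3, 41.8 and 50.2 CPM in wildtype cultures A, B and C. As in P4ha1, mutant culture B was the highest and the other mutant cultures lay within the wildtype range. Its log2 fold change of 0.69 ± 0.51 (SE; adjusted p = 0.758, edgeR) was -0.11 without mutant culture B. The 25 genes around Plod2 had a median log2 level of 0.01 in that culture, unlike those around P4ha1.
Plod1 (chromosome 4, 147909753 to 147936767) had 118, 151 and 121 CPM in mutant cultures A, B and C, against 122, 131 and 60.2 CPM in wildtype cultures A, B and C. Wildtype culture C was the low value, and the groups overlapped. This gave a log2 fold change of 0.32 ± 0.32 (SE), and of 0.05 without that culture. Plod3 (chromosome 5, 136987019 to 136996648) had the smallest standard error of the enzyme genes, with 115 ± 26.8 CPM in the mutant and 111 ± 8.97 CPM in the wildtype (SD, n = 3 each), and a log2 fold change of 0.05 ± 0.21 (SE). Plod3 overlaps Znhit1 on the opposite strand by 1003 bases, and whether the counting used strand is not given in the sources used here, so reads in that stretch may belong to either gene.

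The 2 largest fitted log2 fold changes of the enzyme genes were among the lysyl oxidases, Loxl2 and Loxl3. Lox, the founding member, had 1 count in mutant culture C and 0 in the other 5 cultures, and Loxl1, which acts on elastin, had 1 count in mutant culture B, 1 in wildtype culture C and 0 elsewhere. Both were at or under 3 counts in every culture, so no fold is given for them. The reads of the family therefore came from Loxl2, Loxl3 and Loxl4, the members with scavenger receptor cysteine-rich domains.
Loxl2 (chromosome 14, 69609068 to 69695834), which cross-links collagen IV and takes part in the sprouting of vessels, had 28.8, 15.4 and 25.9 CPM in mutant cultures A, B and C. The wildtype values were 1.75, 2.40 and 9.61 CPM in the same order. Every mutant culture was above every wildtype culture, with mutant B and wildtype C nearest each other. The fit gave a log2 fold change of 2.33 ± 0.70 (SE), a 5.04-fold difference of the fitted levels (Benjamini-Hochberg adjusted p = 0.299 in edgeR's quasi-likelihood test). An exact permutation test of 3 cultures against 3, two-sided, gave p = 0.1, the smallest it allows. With any of the 6 cultures removed Loxl2 still passed both thresholds, with log2 fold changes from 1.95 to 3.50. The upper end was the fit without wildtype culture C. Its adjusted p was 0.0258 with DESeq2 and ranged from 0.00311 to 0.772 over the alternatives tried, the lower end being a fit without mutant culture B and wildtype culture C that was chosen after seeing the data. The 25 genes around Loxl2 had a median log2 level of 0.71 in mutant culture B and of 0.13 and 0.06 in mutant cultures A and C; with these levels taken out the log2 fold change was 2.11. R3hcc1, which lies 1473 bases from Loxl2, had a log2 fold change of 0.30.

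Loxl3 (chromosome 6, 83034173 to 83052562) had 24.5, 0 and 33.3 CPM in mutant cultures A, B and C, against 6.56, 6.50 and 5.08 CPM in wildtype cultures A, B and C. Mutant cultures A and C lay above all wildtype cultures, and mutant culture B, with no count, below all of them. The log2 fold change was 1.67 ± 1.40 (SE; adjusted p = 0.789, edgeR). Without mutant culture B it was 2.26 ± 0.25 (SE; adjusted p = 0.0361), past both thresholds; over all alternatives tried its adjusted p ranged from 0.00713 to 0.994. The 3′ end of Loxl3 overlaps Htra2 on the opposite strand by 1297 bases, and Htra2 had 26.5 CPM in mutant culture B, between 22.1 and 32.2 CPM in the other cultures.
Loxl4 (chromosome 19, 42593982 to 42612813) had 178, 331 and 49.4 CPM in mutant cultures A, B and C, against 112, 165 and 176 CPM in wildtype cultures A, B and C. Both the highest and the lowest culture were mutant cultures, B and C, with the wildtype between them. The log2 fold change was 0.30 ± 0.63 (SE), and -0.41 without mutant culture B.

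**Figure D2:**
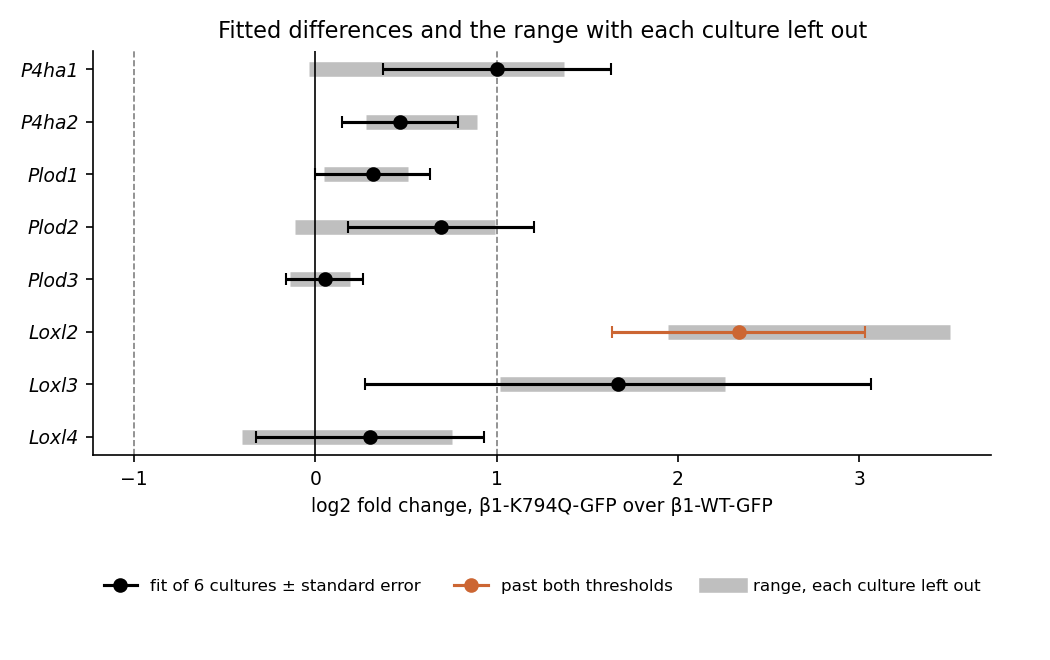
Log2 fold change of β1-K794Q-GFP over β1-WT-GFP cells for the 8 tested enzyme genes, as points with standard errors from the fit of 6 cultures and grey bars for the range with each culture left out; dashed lines mark a 2-fold difference. The grey bar of Loxl2 runs from 1.95 to 3.50, and those of P4ha1, Plod2, Plod3 and Loxl4 cross 0.

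Per kilobase of exon, a scale on which levels of different genes can be set side by side, Loxl4 was the most abundant enzyme gene in β1-WT-GFP cells, with 35.8 ± 8.17 CPM per kb (SD, n = 3). It was followed by Plod3 at 24.5 ± 1.99, P4ha1 at 17.9 ± 5.46, Plod1 at 15.4 ± 5.70 and Plod2 at 7.68 ± 1.66 CPM per kb. P4ha2 at 3.30 ± 1.43, Loxl3 at 1.31 ± 0.181 and Loxl2 at 0.849 ± 0.807 CPM per kb were lower, and Loxl1 and Lox were under 0.03 CPM per kb in every culture. Neighbours in this order overlapped between cultures from Loxl4 down to Plod2, between Loxl3 and Loxl2, and between Loxl1 and Lox; Plod2 and P4ha2, P4ha2 and Loxl3, and Loxl2 and Loxl1 did not overlap.
In β1-K794Q-GFP cells the order was Loxl4 (44.2 ± 33.5), P4ha1 (35.9 ± 32.0), Plod3 (25.4 ± 5.93), Plod1 (19.2 ± 2.75) and Plod2 (12.4 ± 9.20 CPM per kb). P4ha2, Loxl2 and Loxl3 then stood at means of 4.56 ± 0.265, 4.32 ± 1.30 and 4.18 ± 3.75 CPM per kb. The mean of Loxl3 came from 5.31, 0 and 7.23 CPM per kb in mutant cultures A, B and C. Of all neighbours in this order, only Plod2 and P4ha2 did not overlap between cultures. The order of the means depended on mutant culture B. P4ha1 had 19.9, 72.8 and 15.1 CPM per kb in mutant cultures A, B and C, and lay under Plod3 in A and C. Loxl4 had 42.3, 78.6 and 11.7 CPM per kb in the same order, and in C it lay under Plod3, Plod1 and P4ha1.

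Within the lysyl oxidases, Loxl4 made up 93.8%, 95.5% and 93.5% of the per-kilobase sum in wildtype cultures A, B and C, against 79.9%, 96.5% and 49.4% in mutant cultures A, B and C. Mutant cultures A and C thus held less Loxl4 than the wildtype as a share of the family, and mutant culture B did not. The share of Loxl2 was 10.1%, 3.49% and 20.1% in the mutant and 1.14%, 1.08% and 3.97% in the wildtype cultures A, B and C. Mutant culture B, which had the largest sum at 81.5 CPM per kb, fell within the wildtype range in this share although its Loxl2 level was above it. In mutant culture C, with the smallest sum at 23.8 CPM per kb, Loxl3 held 30.4%. These shares are descriptions, and their differences were not tested.
In the prolyl 4-hydroxylase subunits, P4ha1 made up between 76.7% and 87.6% of the per-kilobase sum in 5 cultures and 94.4% in mutant culture B. Among lysyl hydroxylases Plod3 held the largest share in every culture, from 41.2% in mutant culture B to 55.8% in wildtype culture C. Plod2 reached 29.8% in mutant culture B and 22.6% in wildtype culture C, and lay between 12.5% and 16.7% in the other 4 cultures.

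**Figure D3:**
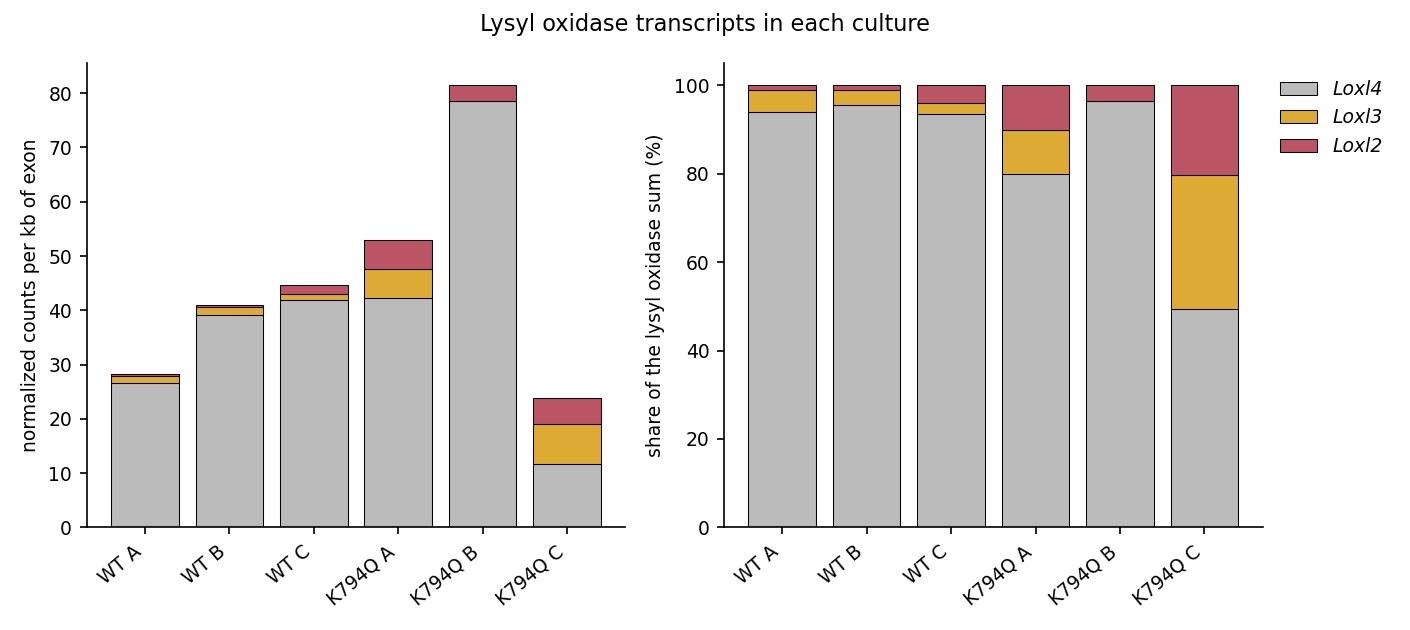
Levels of Loxl2, Loxl3 and Loxl4 in each culture, as stacked bars of CPM per kb of exon on the left and as percent of their sum on the right; Lox and Loxl1 are too low to draw. Loxl4 holds 93.5% or more in the wildtype cultures and mutant culture B, 79.9% in mutant culture A and 49.4% in mutant culture C.

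Of the 8 tested enzyme genes, 5 had their highest value in mutant culture B (Loxl4, P4ha1, Plod1, Plod2 and Plod3), 62.5% beside 21.9% of all tested genes. The same culture held the highest value of 14 of 19 tested hypoxia response genes (73.7%) and of 7 of 10 endothelial markers (70.0%). In edgeR 0 of these 19 genes passed both thresholds and 0 had an unadjusted p under 0.05. DESeq2, which gave a p value for 18 of them, put 1 past both thresholds, Bnip3, higher in the mutant. The median log2 fold change of the 19 was 0.32 (edgeR), and from -0.12, without mutant culture B, to 0.51 with a culture left out. Their summed level was 2502, 4231 and 1462 CPM in mutant cultures A, B and C, against 1987, 2106 and 2504 CPM in wildtype cultures A, B and C, which puts mutant culture B above and mutant culture C below the rest. Aldoa, encoding a glycolytic enzyme, had 1684 CPM in mutant culture B and its lowest value, 407 CPM, in mutant culture C. Ldha, encoding lactate dehydrogenase, lay between 277 and 678 CPM, and Egln3, encoding an oxygen-sensing prolyl hydroxylase, between 84.4 and 288 CPM, both with the highest value in mutant culture B and the lowest in mutant culture C. Loxl4 and Plod3 had their highest and lowest values in these same cultures. P4ha1, Plod1 and Plod2, also highest in mutant culture B, were lowest in a wildtype culture, A for P4ha1 and Plod2 and C for Plod1. The part of a hypoxia response in the enzyme levels was not tested.

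Of 14 other enzymes and chaperones that fold collagen in the endoplasmic reticulum, 13 were tested, and 1 passed both thresholds, P3h4, lower in β1-K794Q-GFP cells. The median log2 fold change of the 13 was -0.16, and between -0.23 and 0.04 with a culture left out. P3h4 (chromosome 11, 100408456 to 100414836; listed as Leprel4), a member of the prolyl 3-hydroxylase family that works with lysyl hydroxylase Plod1, had 3.08, 6.32 and 3.96 CPM in mutant cultures A, B and C. The wildtype values were 20.1, 19.0 and 17.9 CPM. The groups were far apart compared with the spread inside them, and the log2 fold change was -2.09 ± 0.32 (SE; adjusted p = 0.0955, edgeR). Its adjusted p was 3.2e-06 with DESeq2 and ranged from that value to 0.476 over the alternatives tried. P3h4 passed both thresholds in all 6 fits that left out a culture, from -2.42 to -1.89.
Fkbp10, named after its values were seen, encodes a peptidyl-prolyl isomerase that activates lysyl hydroxylase Plod2, and starts 861 bases from the start of P3h4 on the opposite strand. It had 0, 50.4 and 0 CPM in mutant cultures A, B and C, against 71.2, 80.8 and 133 CPM in wildtype cultures A, B and C. All mutant cultures were under the wildtype range, but mutant culture B was much closer to it than the cultures with no count, and at a log2 fold change of -2.50 ± 1.93 (SE) it did not pass the test (adjusted p = 0.766, edgeR). Without mutant culture B Fkbp10 passed both thresholds. With the regional levels taken out, its log2 fold change was -1.92. Fkbp10 overlaps Nt5c3l on the opposite strand by 2504 bases, so that reads there may belong to either gene. Tmem38b, also named afterwards, encodes an endoplasmic reticulum cation channel needed for normal lysyl hydroxylation; it lay between 9.57 and 10.9 CPM in the mutant and between 14.8 and 24.4 CPM in the wildtype, with a log2 fold change of -0.95 ± 0.25 (SE; adjusted p = 0.245, edgeR, 0.05 with DESeq2, and 0.0248 to 0.772 over the alternatives), just under 2-fold, and of -1.10 without wildtype culture C, where it passed both thresholds. Of the genes of the list with the most reads, P4hb had 492 ± 65.9 and 497 ± 145 CPM and the collagen chaperone gene Serpinh1 435 ± 103 and 485 ± 105 CPM, with overlapping groups. Colgalt1, which adds galactose to hydroxylysine, had 144 ± 18.9 and 167 ± 4.53 CPM in mutant and wildtype cells (SD, n = 3 each). The groups of Colgalt1 did not overlap, and its log2 fold change was -0.21.

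Among 12 genes of procollagen export and propeptide removal, 7 were tested and 1, Tll1, passed both thresholds, lower in the mutant, with a median log2 fold change of -0.29 over the 7 that ran from -0.62 to 0.34 with a culture left out. Tll1 (chromosome 8, 64014931 to 64206271), a protease of the Bmp1 family that removes the C-terminal propeptide and can process lysyl oxidases, had 50.9, 52.5 and 34.9 CPM in mutant cultures A, B and C, against 340, 396 and 115 CPM in wildtype cultures A, B and C. Wildtype culture C was the nearest to the mutant, and the groups did not overlap. Tll1 had a log2 fold change of -2.62 ± 0.49 (SE; adjusted p = 0.12, edgeR), and passed both thresholds in all 6 fits that left out a culture. With DESeq2 the adjusted p of Tll1 was 1.91e-05, the lowest of the alternatives tried, which reached up to 0.487. The export receptor gene Mia3 had 156 ± 28.4 and 139 ± 26.5 CPM, and the coat subunit gene Sec24d 83.7 ± 34.0 and 101 ± 58.6 CPM in mutant and wildtype cells (SD, n = 3 each).
Among 8 genes of copper and ascorbate supply and matrix partners of lysyl oxidases, 6 were tested and 1, Fbln5, passed both thresholds, higher in the mutant, with a median log2 fold change of 0.03 over the 6, from -0.08 to 0.19 with a culture left out. Fbln5 (chromosome 12, 101746565 to 101819055) encodes a fibulin that brings lysyl oxidase activity to elastic fibres. It had 234, 81.8 and 164 CPM in mutant cultures A, B and C, against 36.7, 40.3 and 27.0 CPM in wildtype cultures A, B and C. As with Loxl2, mutant culture B was the mutant value nearest to the wildtype. Fbln5 had a log2 fold change of 2.21 ± 0.41 (SE; adjusted p = 0.118, edgeR), past both thresholds in all 6 fits that left out a culture. The adjusted p of Fbln5 ran from 5.4e-05 with DESeq2 to 0.496 over the alternatives. The copper pump gene Atp7a, with 168 ± 38.7 and 159 ± 15.5 CPM, and the ascorbate carrier gene Slc23a2, with 139 ± 24.5 and 141 ± 15.2 CPM in mutant and wildtype cells (SD, n = 3 each), differed by less than the spread between cultures. Fibronectin (Fn1) ranged from 172 to 5833 CPM, with the highest value in wildtype culture C and the next, 1737 CPM, in mutant culture B.

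**Figure D4:**
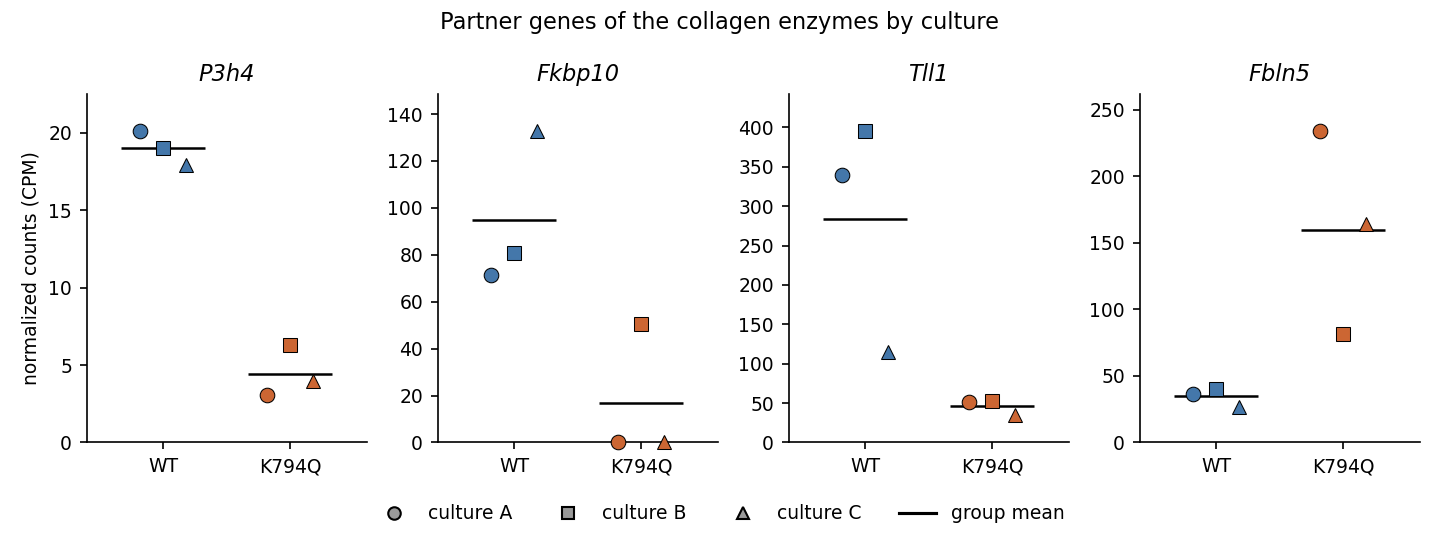
Normalized counts (CPM, linear axes from 0) of P3h4, Fkbp10, Tll1 and Fbln5 in each culture, with blue symbols for β1-WT-GFP, orange symbols for β1-K794Q-GFP and bars at the group means. The groups do not overlap in any of the 4 genes, nor in 16.6% of all tested genes. The 4 were chosen by the thresholds or, for Fkbp10, after its values were seen. Fkbp10 has 50.4 CPM in mutant culture B and 0 in mutant cultures A and C.

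Of 12 collagen chain and elastin genes, the substrates of these enzymes, 7 were tested. None passed both thresholds in edgeR or DESeq2, and the unadjusted p was under 0.05 for 0 of them in edgeR. Their median log2 fold change was 0.22, and lay between -0.48 and 0.79 when a culture was left out. Col4a1 and Col4a2, the chains of the basement membrane network, had their highest values in mutant culture B, 6822 and 5447 CPM, against 1831 to 4714 and 1096 to 2842 CPM in the other cultures, the culture in which P4ha1 and Plod2 were highest as well. Col18a1 was highest in wildtype culture C at 2644 CPM. The fibrillar chain genes Col1a1, Col1a2 and Col3a1 stayed at or under 5.92 CPM in every culture and did not pass the filter. Col5a2 and Eln were named after their values were seen: Col5a2 had 0 counts in mutant culture B and 67.1 CPM or more elsewhere, and Eln had 0.197 CPM there and 12.1 CPM or more elsewhere, the same culture in which Loxl3 had no count. Of all tested genes, 47 had at most 3 counts in mutant culture B and at least 5 CPM in each of the other cultures, against 3 such genes for wildtype culture C and 0 for each of the other 4 cultures.

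Markers of other cell types were near 0 with the following exceptions. Of 10 fibroblast and mural cell markers, 1 was tested, Pdgfra, and Thy1, Dcn, Lum, Des and Rgs5 had no count in any culture; the summed level was 2.70, 0.493 and 1.29 CPM in mutant cultures A, B and C, against 0.525, 1.00 and 22.0 CPM in wildtype cultures A, B and C. Pdgfra gave 16.4 of the 22.0 CPM in wildtype culture C, the wildtype culture with the lowest Plod1, Plod3 and Loxl3 and the highest P4ha1, P4ha2, Plod2, Loxl2 and Loxl4 values. Pdgfrb, Tagln and Acta2 had 2.30, 1.81 and 1.18 CPM in wildtype culture C and at most 0.385 CPM in any other culture. Of 6 epithelial markers none was tested, Krt8 stayed at or under 0.592 CPM, and Epcam, Krt18, Krt5 and Krt14 had no count. Of 7 leukocyte markers 1 was tested, Cd68, at 31.0 to 103 CPM, a lysosomal gene not limited to leukocytes; Csf1r had 10.7 CPM in wildtype culture C and under 1 CPM elsewhere, Ptprc was at or under 0.279 CPM, and Adgre1 and Cd3e had no count. The summed leukocyte level was 71.7, 104 and 31.8 CPM in the mutant and 77.2, 89.0 and 48.5 CPM in the wildtype cultures A, B and C. The part of these markers in the enzyme levels of wildtype culture C was not tested; without that culture the log2 fold change of Loxl2 was larger.

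Over the 6 cultures, the tested genes whose log2(CPM + 1) was most like that of Loxl2 were Ly6a, encoding the surface antigen Sca-1, Zfp365 and Esyt1, encoding an extended synaptotagmin, with Pearson r of 0.994, 0.993 and 0.992. The r describes the group difference as well as the spread inside the groups, and 69 genes had an r over 0.95. Ly6a had 249, 182 and 202 CPM in mutant cultures A, B and C, against 38.8, 48.0 and 113 CPM in wildtype cultures A, B and C. As in Loxl2, mutant culture B and wildtype culture C were the values nearest to the other group.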

How the data were processed

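The authors depleted ribosomal RNA, sequenced total RNA of 6 cultures and deposited raw read counts for each mouse gene symbol; the submitters' processing notes name bcl2fastq 2.20.0, STAR 2.7.4a, HTSeq 0.9.1, edgeR 3.38.4 and mm10. Strand use in counting is not given in the sources used here. The labelled CO2 level is lower than the one in the study's methods. The totals ranged from 9589826 to 15287191 counts, which limits precision for genes near 3 counts.

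The groups were compared with edgeR 4.0.16 under R 4.3.3 (filterByExpr, TMM, glmQLFit and glmQLFTest, two-sided), the test and thresholds of the study; Benjamini-Hochberg adjustment was over all 11608 tested genes. Standard errors were taken as the log2 fold change, without sign, over the square root of its F. Positions and exon lengths came from GENCODE M21 (GRCm38): 21737 symbols matched directly and 1275 through a synonym. For the regional level, log2((CPM + 0.5) over the wildtype mean plus 0.5) was smoothed by a running median of 25 genes along each chromosome.

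Members and lists were chosen with earlier results of these data known. The genes named were all members, from each other list every gene past both thresholds (at most 6) and its 3 tested genes with the highest mean CPM over the 6 cultures, the 3 genes most like the member past both thresholds, and Bnip3, a list gene past both thresholds in DESeq2 and not in edgeR, found in a check of the lists with DESeq2 that was added after the text was drafted; all others were named after their values were seen. Alternatives were no filter, at least 10 counts in every culture, RLE factors, the likelihood ratio test, DESeq2 1.42.0, the culture letter as a block, the regional level in the offset, and each culture left out; leaving out mutant culture B and wildtype culture C together was added after seeing the data. On simulated counts of 11608 genes the fit put 100% of 197 tested genes with an 8-fold change past both thresholds, and 391 of 11273 unchanged genes. These counts were drawn with the dispersion trend over abundance, and no simulated culture was set apart from its group. They check the code and give no recovery rate for the real cultures, some of which stood apart. Figures were drawn with matplotlib 3.10.9, and tables made with pandas 2.3.3, scipy 1.17.1 and numpy 2.4.6, under Python 3.11.15.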

Additional observations from a re-analysis of the deposited data

How the results depend on the processing

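The direction of the difference and its side of both thresholds held for Loxl2, P3h4, Tll1 and Fbln5 under all alternatives tried. Loxl2 ranged from 2.11 to 3.74 on the log2 scale over the alternatives that kept each group complete or left out both mutant culture B and wildtype culture C. Over the fits that omit 1 culture, the log2 fold change ran from -0.41 to 0.75 in Loxl4, from -0.034 to 1.37 in P4ha1, from -0.11 to 0.99 in Plod2 and from -0.14 to 0.19 in Plod3, the lowest of each without mutant culture B. Without both cultures, a choice made after seeing the data, it was -0.27 in Loxl4, -0.069 in Plod1 and -0.17 in Plod3; the cause was not tested. The log2 fold change of Loxl3 passed both thresholds without mutant culture B and without both cultures, at 2.26 and 2.16, and Loxl3 could not be tested with at least 10 counts in every culture, since it has no count in mutant culture B.

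The number of genes past both thresholds was 603, and 916 with no filter on low counts, where 15974 genes were tested, 501 to 992 with each culture left out, and 1661 without mutant culture B and wildtype culture C. The number of enzyme genes past both thresholds was 1, with 1 to 2 when a culture was left out and 2 without both cultures. At an adjusted p of at most 0.05 it was 0 with edgeR, 1 with DESeq2, 0 to 1 with each culture left out, and 3 without both cultures (Loxl2, Loxl3 and P4ha2). Over all genes this level was reached by 21 of 11608 with edgeR, 477 of 11608 with DESeq2, 0 to 125 with each culture left out and 1796 of 11721 (15.3%) without both. The number was 318 with the likelihood ratio test, 4 with at least 10 counts in every culture and 1 with the culture letter as a block. P3h4, Tll1 and Fbln5 reached it with DESeq2 and with the likelihood ratio test (adjusted p = 0.000134, 0.000134 and 0.000264). Tmem38b reached it with DESeq2, just under the limit, and not with the likelihood ratio test. The culture letters are not said to pair the samples, and the deviations of same-letter cultures correlated at 0.095, 0.055 and 0.095 over genes for A, B and C, against -0.15 to 0.095 for the pairs of unlike letters. Mutant cultures B and C correlated best with the wildtype culture of their own letter, and mutant culture A about equally with wildtype cultures A and B. With the letter as a block, 571 genes and 1 enzyme gene passed both thresholds, and no enzyme gene reached an adjusted p of 0.05, a count of 0. The block moved the log2 fold change of Loxl3 from 1.67 to 0.80, of Loxl4 from 0.30 to 0.0035, of Plod3 from 0.050 to 0.028 and of Fkbp10 from -2.50 to -6.44, none of them past both thresholds in either fit. Depth limits Lox and Loxl1, which lie at or under the 3 counts that a count of 0 allows. Loxl3 is a different case. It had 0 counts in mutant culture B, out of a total of 11197729, and 65 to 387 counts in the other cultures.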

Other observations

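P3h3, a prolyl 3-hydroxylase found with P3h4, had 11.7, 1.09 and 24.9 CPM in mutant cultures A, B and C and 6.47, 5.70 and 6.48 CPM in wildtype cultures A, B and C. Its lowest value was in mutant culture B and its highest in mutant culture C, as in Loxl3, and its log2 fold change was 1.02 (standard error 0.91). Slc31a1, the copper importer gene, lay between 61.4 and 86.7 CPM in the mutant and between 87.4 and 102 CPM in the wildtype, with no overlap and a log2 fold change of -0.43 (standard error 0.19). Both were named after their values were seen.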
